A study of Homo sapiens with 6 samples.

Results

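Zinc transporters, metallothioneins and the zinc sensor MTF1 are described here in H460, a human line derived from a large-cell lung carcinoma, after glutamine withdrawal. Members were taken by symbol: SLC30A or SLC39A followed by a number alone, MT1 followed by a single letter, MT2A and MTF1. This gave 35 of the 24462 symbols in the files, of which 10 were SLC30A genes, 14 SLC39A genes, 10 metallothionein genes and 1 MTF1. Reading the rule for MT1 as a prefix would add MT1DP, MT1HL1, MT1IP and MT1JP, which held 5, 5, 4 and 1 counts over all 6 libraries. The depleted group (3 libraries) was H460 cells kept in RPMI 1640 without glutamine and with 10% dialyzed fetal bovine serum for 24 h, and the replete group (3 libraries) was H460 cells with glutamine. Routine culture used 10% fetal bovine serum, and the labels leave out which serum replete cells had over those hours, so a change of serum and the loss of glutamine cannot be told apart. Reads came from near the polyadenylated 3′ end of transcripts.

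Zinc enters the cytosol through the ZIP proteins encoded by the SLC39A genes, either from outside the cell or out of organelles, and is moved the other way by the ZnT proteins encoded by the SLC30A genes. Metallothioneins are small cysteine-rich proteins that bind zinc, copper and cadmium. MTF1 is a zinc-finger transcription factor that binds metal response elements when cytosolic zinc is high, and the metallothionein genes and SLC30A1 are its best-known targets.

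The libraries held 7550849 to 10914899 counts, and levels are given in CPM, counts scaled to a library total of 1000000. A count of 0 allows up to 3 counts, or 0.275 to 0.397 CPM depending on the library, for counting error only. Depleted replicate 2 stood apart, at 19.4 and 11.7 against the other depleted libraries (chi-square over its degrees of freedom), where the remaining pairs within a group ran from 1.51 to 3.92, so calls are also given without it where they change. The 5 epithelial markers summed to 761 to 881 CPM in depleted and 2067 to 2092 CPM in replete libraries. The keratin genes KRT8, KRT18 and KRT19 made up nearly all of this, KRT8 and KRT19 fell, and EPCAM and CDH1 averaged 0.207 and 0 CPM in depleted and 0.404 and 0.0421 CPM in replete libraries. The 4 fibroblast markers summed to 10.8 to 80.0 CPM in depleted and 15.3 to 26.9 CPM in replete libraries, with the highest sum in depleted replicate 3, and the 4 blood markers to 4.12 to 5.50 CPM in depleted and 6.31 to 8.84 CPM in replete libraries. The endothelial markers CDH5 and VWF were at 0 in every library. The part of these markers in the results was not tested. In a bulk sample, fewer cells of a type and less RNA per cell cannot be told apart. Whether replicates were separate cultures is not in the labels, and p-values measure only how far these samples spread, which may be technical.

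Of the 35 members, 22 passed the filter on low counts, and 21 of these reached its level of 1.15 CPM in all 6 libraries, the exception being MT1X. In edgeR's quasi-likelihood test, with p adjusted over all 12739 genes tested and a threshold of 0.05, 6 members rose in depleted cells, 9 fell and 7 did not pass. That is 68.2% of the tested members called, where 78.6% of all tested genes were called, so the members' share lay below that of all genes. The share that rose was 27.3% against 39.1% of all genes, and the share that fell was 40.9% against 39.4%. The CPM ranges of the groups did not overlap for 18 of the 22, and for 81.0% of all tested genes. The median log2 fold change (depleted over replete) was −0.07 for the members and −0.02 for all tested genes. Log2 fold changes use trimmed-mean (TMM) scaling, and with library totals alone the median of all tested genes moved to −0.25. With that scaling 32.4% of all tested genes were higher and 46.5% lower, and of the members 6 were higher and 11 lower. A CPM can thus be slightly lower in a group in which the log2 fold change is positive.

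**Figure D1:**
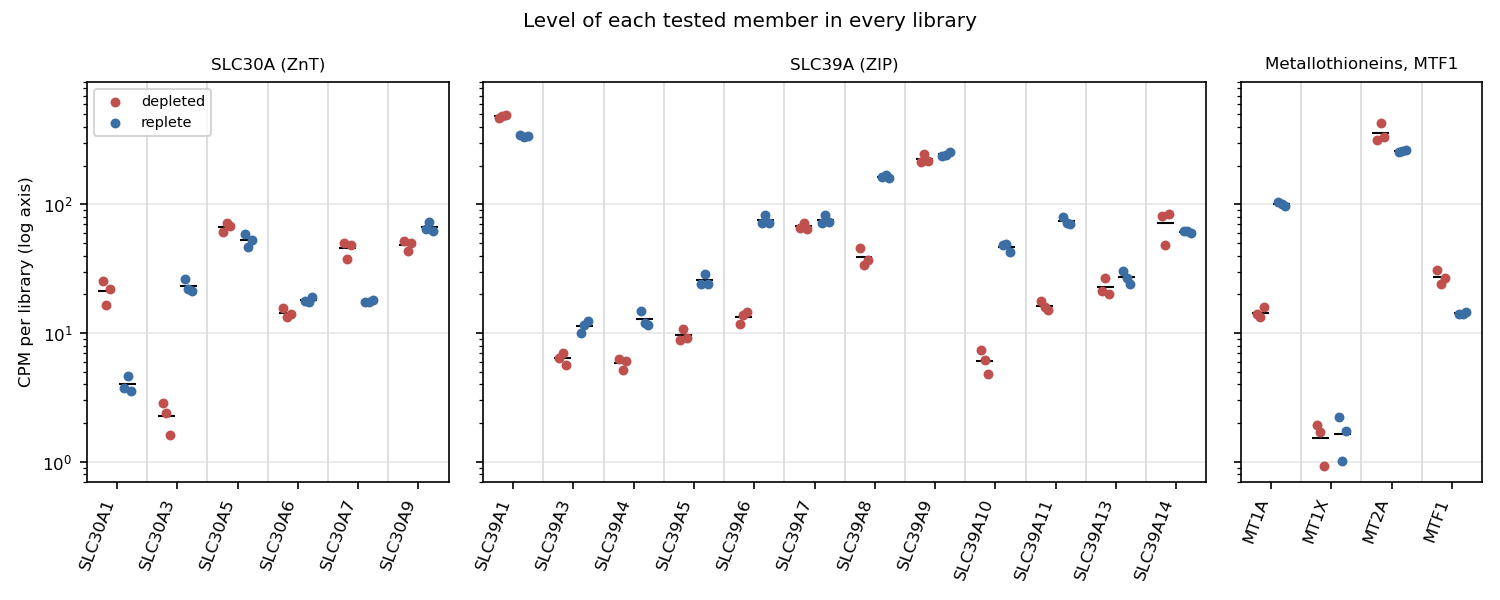
Level of each of the 22 tested members in every library, in CPM on a log axis, with depleted libraries in red left of replete libraries in blue and the group mean as a black bar. SLC30A1, SLC30A7, MT2A and MTF1 are higher in all 3 depleted libraries, and SLC30A3, MT1A and SLC39A6, SLC39A8, SLC39A10 and SLC39A11 are lower in all 3.

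The zinc sensor rose. MTF1 had 31.1, 23.9 and 26.8 CPM in depleted libraries, against 14.2, 14.02 and 14.6 CPM in replete libraries. Every depleted library lay above every replete library, and the replete libraries were close to each other. The log2 fold change was 1.16 (SE 0.13, edgeR adjusted p = 2.23e-06), and it was 1.25 without depleted replicate 2.

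Metal response elements, the sites that MTF1 binds, share the core TGCACNC or TGCGCNC. RefSeq promoter windows on GRCh38.p14, from 250 bases before to 50 after an annotated start, were found for 26 of the 35 members, 35 windows in all. The core was searched on both strands, and overlapping matches were each counted. At least 1 match lay in 17 of the 35 member windows (48.6%) and in 29.6% of all 35116 promoter windows, and at least 3 matches lay in 5 member windows and in 2.30% of all windows. All 4 metallothionein windows, those of MT2A, MT1B, MT1H and MT1X, held at least 3, as did the window of SLC30A2. No window was found for the other metallothionein genes, among them MT1A, which fell. MT2A and MT1H held 8 each, and 6 or more matches lay in 26 of all windows (0.0740%). The MTF1 window held no match, which says only that these letters are not in this window. A match is a description of the letters and not a site of binding. The windows below are shown because MT2A and SLC30A1 rose, SLC39A10 fell and MT1X did not pass, with matches on either strand in capitals. They lie at chr16:56608334-56608633 on the plus strand for MT2A, chr16:56682220-56682519 on the plus strand for MT1X, chr1:211579112-211579411 on the minus strand for SLC30A1, and chr2:195656976-195657275 on the plus strand for the second annotated start of SLC39A10.
MT2A: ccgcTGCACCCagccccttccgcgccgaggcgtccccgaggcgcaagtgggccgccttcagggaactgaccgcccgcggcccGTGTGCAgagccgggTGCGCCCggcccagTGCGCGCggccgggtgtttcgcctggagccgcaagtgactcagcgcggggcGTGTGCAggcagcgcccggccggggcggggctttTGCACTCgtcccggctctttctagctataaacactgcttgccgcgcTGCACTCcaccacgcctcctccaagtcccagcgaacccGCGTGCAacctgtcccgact
MT1X: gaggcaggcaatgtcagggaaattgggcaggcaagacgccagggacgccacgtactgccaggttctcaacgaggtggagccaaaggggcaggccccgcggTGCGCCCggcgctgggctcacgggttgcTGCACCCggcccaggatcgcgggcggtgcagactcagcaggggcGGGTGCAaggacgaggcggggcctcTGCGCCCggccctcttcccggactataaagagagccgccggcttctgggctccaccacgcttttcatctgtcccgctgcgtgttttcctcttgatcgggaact
SLC30A1: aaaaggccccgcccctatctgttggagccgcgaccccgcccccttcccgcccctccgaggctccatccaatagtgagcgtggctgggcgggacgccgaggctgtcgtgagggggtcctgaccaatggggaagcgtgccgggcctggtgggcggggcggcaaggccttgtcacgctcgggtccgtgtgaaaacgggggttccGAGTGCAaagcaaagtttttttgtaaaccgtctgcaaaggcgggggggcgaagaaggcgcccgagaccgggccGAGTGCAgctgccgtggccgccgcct
SLC39A10: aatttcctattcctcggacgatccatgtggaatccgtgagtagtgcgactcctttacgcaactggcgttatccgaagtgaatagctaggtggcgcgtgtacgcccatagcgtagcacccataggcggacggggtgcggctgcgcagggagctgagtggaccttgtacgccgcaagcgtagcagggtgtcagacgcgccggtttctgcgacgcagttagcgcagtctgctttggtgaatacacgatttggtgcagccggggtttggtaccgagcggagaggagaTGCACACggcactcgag
The SLC30A1 window held 2 matches, both TGCACTC on the opposite strand, at −49 and 25 from the start. The SLC39A10 window held 1, TGCACAC at 34, and the window of its first annotated start held 0. Members that rose had windows with 8 matches (MT2A), 2 (SLC30A1), 1 (SLC39A1, in 1 of its 2 windows) and 0 (SLC30A5, SLC30A7 and MTF1), and several members that fell also held a match, among them SLC30A3, SLC39A3, SLC39A5, SLC39A6 and SLC39A8.

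**Figure D2:**
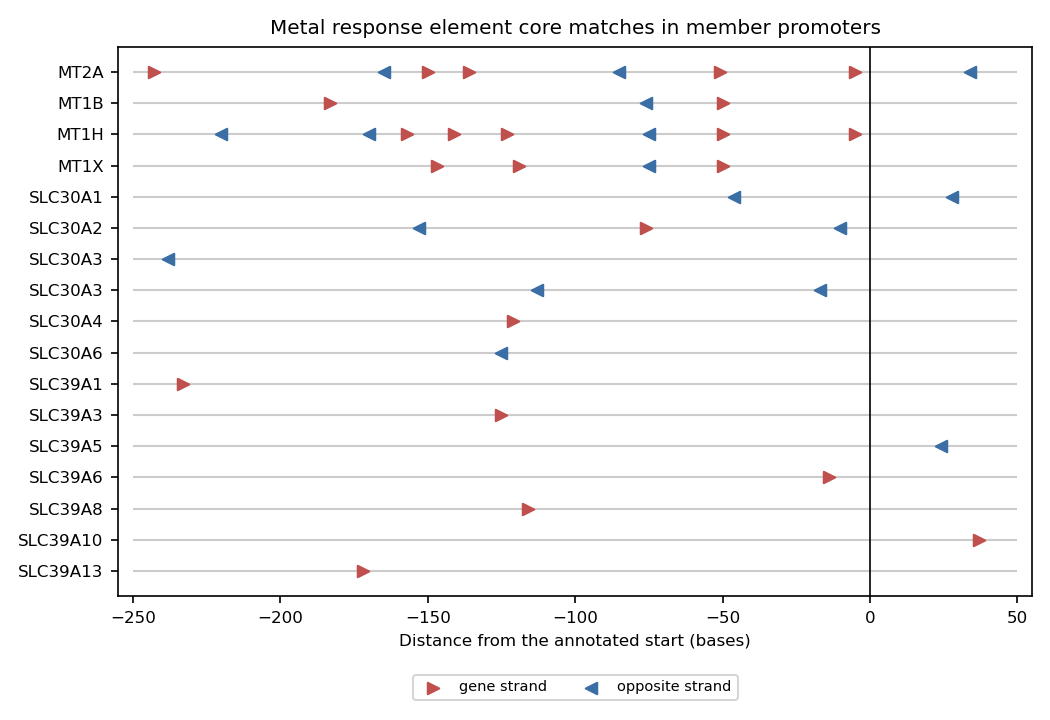
Positions of core matches in the 17 member windows that hold at least 1, as distance of the match's middle in bases from the annotated start, with matches on the gene's strand as red triangles and those on the opposite strand as blue triangles. Each line is a window, and the 4 metallothionein windows at the top hold 8, 3, 8 and 4 matches.

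The 2 abundantly counted metallothioneins moved in opposite directions. MT2A, the main human metallothionein in most tissues, had 317, 425 and 331 CPM in depleted libraries, against 257, 259.5 and 262 CPM in replete libraries. Every depleted library was above every replete library, with depleted replicate 2 the highest. The log2 fold change was 0.69 (SE 0.10, edgeR adjusted p = 5.38e-05), and 0.55 without depleted replicate 2. MT1A, another isoform of the same gene cluster on chromosome 16, had 14.1, 13.3 and 15.8 CPM in depleted libraries, against 104, 101 and 97.5 CPM in replete libraries. The groups were far apart, at a 5.99-fold lower level in depleted cells (log2 fold change −2.58, SE 0.10, edgeR adjusted p = 8.68e-11), and only 5.13% of tested genes had a lower log2 fold change.

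The make-up of the metallothionein counts differed between the groups. MT1A gave 4.19%, 3.004% and 4.51% of all metallothionein counts in depleted libraries (Wilson 95% intervals from 2.51% to 5.30%), against 28.5%, 27.8% and 26.8% in replete libraries (25.2% to 30.1%). These intervals cover counting error only, since reads are not independent molecules. The shares did not overlap, and an exact two-sided permutation test over the libraries gave p = 0.1, the smallest that 3 against 3 allows. MT2A gave 94.9% ± 1.05 of the counts in depleted and 71.3% ± 0.962 in replete libraries (SD, n = 3 each). Summed over the 10 metallothionein genes, the level was 337, 442 and 351 CPM in depleted libraries, against 365, 363 and 364 CPM in replete libraries, so the groups overlapped. Tested as a single feature, the sum differed by 0.28 on the log2 scale (SE 0.10, edgeR adjusted p = 0.0178). With library totals alone it was 0.0485 (adjusted p = 0.635, with a range of 0.00229 to 0.635 over the alternatives), and it did not pass with upper quartile factors or without any replete replicate in turn. Without depleted replicate 2 it was 0.15.

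**Figure D3:**
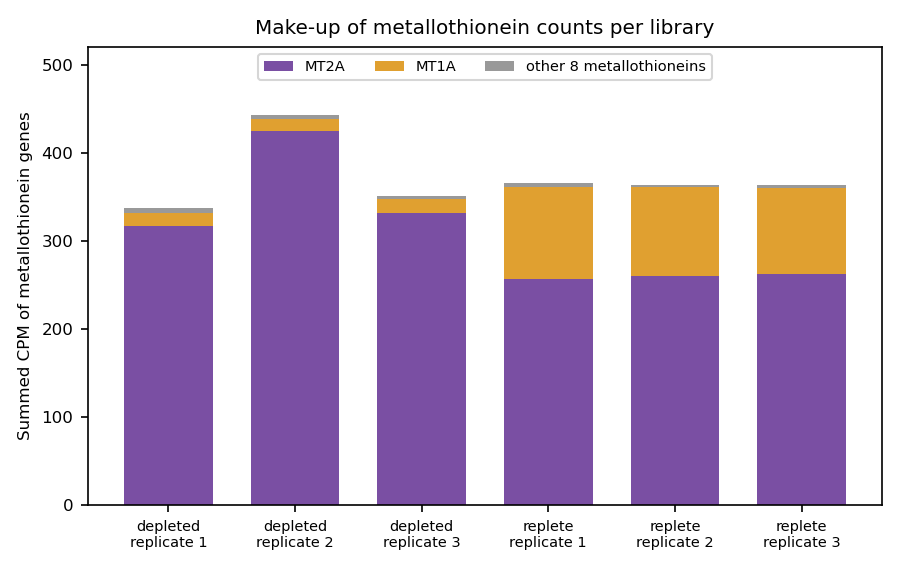
Summed CPM of the 10 metallothionein genes in each library, depleted libraries on the left and replete on the right, split into MT2A, MT1A and the other 8 genes. The bars stand between 337 and 442 CPM, while the MT1A part is 3.004% to 4.51% in depleted and 26.8% to 28.5% in replete libraries.

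Metallothionein transcripts resemble each other, and the handling of reads with several matches is not stated in the sources used here. In the last 200 bases of the longest GENCODE 29 transcript, 11 of 171 windows of 30 bases of MT1A and 3 of 171 of MT2A also occurred in another metallothionein transcript. With windows of 50 bases, 0 of 151 did for either gene, while 21 of 151 did for MT1G and 11 of 151 for MT1H. Over the whole MT1A transcript, 73 of 367 windows of 30 bases and 17 of 347 windows of 50 bases did. Only exact matches were counted, so these numbers cannot show how reads were assigned within the family. The remaining family members had few counts. MT1X had 21, 15 and 8 counts in depleted libraries and 20, 8 and 13 in replete libraries, and its difference of 0.12 on the log2 scale (SE 0.38, edgeR adjusted p = 0.788) changed sign with the scaling. MT1F had 19, 16 and 9 counts in depleted libraries and 9, 8 and 1 in replete libraries. It was below the filter, whose level it reached in 2 depleted and 0 replete libraries. It was called higher without that filter and without depleted replicate 3, replete replicate 1 or replete replicate 2. With a library left out it entered only through the depleted group, where it is high, so these calls are no support for a rise. MT1G had 11, 4 and 9 counts in depleted and 5, 0 and 11 in replete libraries, and MT1E had 12, 0 and 3 in depleted and 5, 4 and 3 in replete libraries. MT1H and MT1L had at most 3 counts in a library, and MT1B and MT1M had 0 in all 6. Outside the rule, the brain-enriched MT3 held 7 counts over all libraries and MT4 held 0.

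Among the ZnT genes, 6 of 10 could be tested, of which 3 rose, 1 fell and 2 did not pass. Of all tested genes, 39.1% rose and 39.4% fell. SLC30A1 (ZnT1), the zinc exporter of the plasma membrane whose promoter is shown above, had 25.2, 16.6 and 21.9 CPM in depleted libraries, against 3.77, 4.67 and 3.58 CPM in replete libraries. It was 6.21-fold higher in depleted cells (log2 fold change 2.63, SE 0.19, edgeR adjusted p = 4.24e-08), the largest rise among the tested members, and 95.4% of all tested genes had a lower log2 fold change. SLC30A7 (ZnT7), which moves zinc into the Golgi, had 50.3, 37.6 and 48.5 CPM in depleted libraries, against 17.5, 17.4 and 18.1 CPM in replete libraries. The lowest depleted library was again replicate 2, still above all replete libraries (log2 fold change 1.59, SE 0.12, edgeR adjusted p = 7.36e-08).

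ZnT5 and ZnT6 form a heteromeric zinc transporter of the early secretory pathway, and ZnT5 to ZnT7 supply zinc to enzymes such as alkaline phosphatase. SLC30A5 had 61.2, 71.5 and 68.3 CPM in depleted libraries, against 58.7, 46.9 and 53.1 CPM in replete libraries. These groups came close to each other without overlapping (log2 fold change 0.57, SE 0.10, edgeR adjusted p = 0.000226). SLC30A6, which encodes the partner, had 14.5 ± 1.20 CPM in depleted and 18.2 ± 0.883 CPM in replete libraries (SD, n = 3 each), and the difference of −0.10 on the log2 scale did not pass (edgeR adjusted p = 0.473). With library totals alone it was −0.33 (adjusted p = 0.0308, over the alternatives 0.0123 to 0.756). SLC30A9 (ZnT9), the mitochondrial zinc exporter, averaged 48.6 ± 4.65 CPM in depleted and 66.2 ± 5.94 CPM in replete libraries, a difference of −0.22 on the log2 scale (edgeR adjusted p = 0.0654). This became −0.44 with library totals alone (adjusted p = 0.00134, over the alternatives 0.000329 to 0.225). With that scaling, 3 ZnT genes were higher and 3 lower, beside 32.4% and 46.5% of all tested genes.

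SLC30A3 (ZnT3), known for loading zinc into synaptic vesicles of neurons, fell the most of all tested members. It had 2.84, 2.41 and 1.62 CPM in depleted libraries, against 26.3, 21.97 and 21.1 CPM in replete libraries. The fall was 8.48-fold (log2 fold change −3.08, SE 0.20, edgeR adjusted p = 1.07e-08), on 14 to 31 counts per depleted library. DNAJC5G, whose exons overlap it on the other strand, held 8 counts in all. The other 4 ZnT genes were barely counted. SLC30A4, an endosomal transporter, had at most 4 counts in a library, SLC30A8, the insulin-granule transporter, had 2 counts in depleted replicate 3 and 0 elsewhere, and SLC30A2 and the manganese exporter SLC30A10 had 0 in all 6.

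Among the ZIP genes, 12 of 14 could be tested, of which 1 rose, 7 fell and 4 did not pass. Their median log2 fold change was −0.75, and 58.3% of them fell, against 39.4% of all tested genes. The share called was 66.7%, below the 78.6% of all tested genes. With library totals alone, 1 ZIP gene was higher and 7 were lower, beside 32.4% and 46.5% of all tested genes. SLC39A6 (LIV-1, ZIP6) and SLC39A10 (ZIP10), which form a heteromeric importer at the plasma membrane, had some of the steepest falls. SLC39A10 had 7.33, 6.19 and 4.85 CPM in depleted libraries, against 48.0, 49.5 and 42.5 CPM in replete libraries (log2 fold change −2.69, SE 0.15, edgeR adjusted p = 2.47e-09). SLC39A6 had 11.8, 13.7 and 14.7 CPM in depleted libraries, against 72.1, 82.3 and 71.5 CPM in replete libraries (log2 fold change −2.27, SE 0.11, edgeR adjusted p = 1.14e-09). For both genes the groups were several-fold apart, 6.45-fold for SLC39A10 and 4.82-fold for SLC39A6.

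SLC39A8 (ZIP8), an importer of zinc, manganese and cadmium, had 46.1, 33.7 and 37.1 CPM in depleted libraries, against 163, 168 and 161 CPM in replete libraries. SLC39A11 (ZIP11), an intracellular family member, had 17.8, 16.0 and 15.2 CPM in depleted libraries, against 79.9, 71.9 and 69.9 CPM in replete libraries. Neither pair of groups overlapped, and the log2 fold changes were −1.84 for SLC39A8 (SE 0.11, edgeR adjusted p = 3.58e-09) and −1.95 for SLC39A11 (SE 0.10, edgeR adjusted p = 1.94e-09). SLC39A5 (ZIP5), an importer of the basolateral membrane in gut and pancreas, averaged 9.60 ± 1.04 CPM in depleted and 25.7 ± 2.77 CPM in replete libraries (log2 fold change −1.20, edgeR adjusted p = 4.40e-06). Its exons overlap ANKRD52 on the other strand over up to 40 bases. ANKRD52 also fell (log2 fold change −0.27, edgeR adjusted p = 0.0302) and held 2027 counts over all libraries, against 899 for SLC39A5. Whether strand was used in counting is not given in the sources used here. SLC39A4 (ZIP4), the intestinal importer whose loss causes acrodermatitis enteropathica, averaged 5.86 ± 0.623 CPM in depleted and 12.8 ± 1.86 CPM in replete libraries (log2 fold change −0.90, SE 0.17, edgeR adjusted p = 0.000264). SLC39A3 (ZIP3), another plasma membrane importer, averaged 6.35 ± 0.669 CPM in depleted and 11.3 ± 1.19 CPM in replete libraries and fell by 0.59 (edgeR adjusted p = 0.00503), but did not pass in a fit with GC content and transcript length as a trend to remove (adjusted p = 0.0603, the highest of its alternatives, with 0.000452 the lowest).

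The ZIP gene that rose was SLC39A1 (ZIP1), a widely expressed importer of the plasma membrane. It had 472, 489 and 491 CPM in depleted libraries, against 343, 331 and 342 CPM in replete libraries. Libraries of each group were close together and the groups did not overlap (log2 fold change 0.74, SE 0.06, edgeR adjusted p = 1.37e-07). Its exons overlap CREB3L4 on the other strand, a gene that fell and held 839 counts over all libraries, against 21968 for SLC39A1. SLC39A14 (ZIP14), a zinc, iron and manganese importer known in liver as an acute-phase gene, had 81.6, 48.6 and 84.5 CPM in depleted libraries, against 62.4, 62.5 and 59.5 CPM in replete libraries. Here 2 depleted libraries lay above all replete libraries and depleted replicate 2 below them. The log2 fold change of 0.45 did not pass (SE 0.18, edgeR adjusted p = 0.0527), whereas it was 0.66 without depleted replicate 2 (adjusted p = 1.79e-10, with values up to 0.321 over the alternatives). It also passed with DESeq2 (adjusted p = 0.00734) and with DESeq2 size factors in edgeR (adjusted p = 0.0427).

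The other 3 ZIP genes that did not pass belong to internal membranes. SLC39A7 (ZIP7), which releases zinc from the endoplasmic reticulum, averaged 67.4 ± 3.96 CPM in depleted and 76.0 ± 6.15 CPM in replete libraries, a difference of 0.05 on the log2 scale (edgeR adjusted p = 0.597). SLC39A9 (ZIP9), found at the Golgi, averaged 225 ± 16.7 CPM in depleted and 245 ± 8.83 CPM in replete libraries, at 0.11 (edgeR adjusted p = 0.211). Exons of SLC39A7 overlap RXRB, and those of SLC39A9 overlap ERH, which held 22574 counts and fell (log2 fold change −1.27), so the counts of these pairs may have been shared. SLC39A13 (ZIP13), an intracellular transporter which is mutated in a form of Ehlers-Danlos syndrome, averaged 22.6 ± 3.57 CPM in depleted and 27.2 ± 3.12 CPM in replete libraries, at −0.04 (edgeR adjusted p = 0.790). The sign of these 3 changes depended on scaling or on the libraries used. SLC39A12 had 1 count in each of 2 depleted libraries and 0 elsewhere, and SLC39A2 had 0 in all 6.

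**Figure D4:**
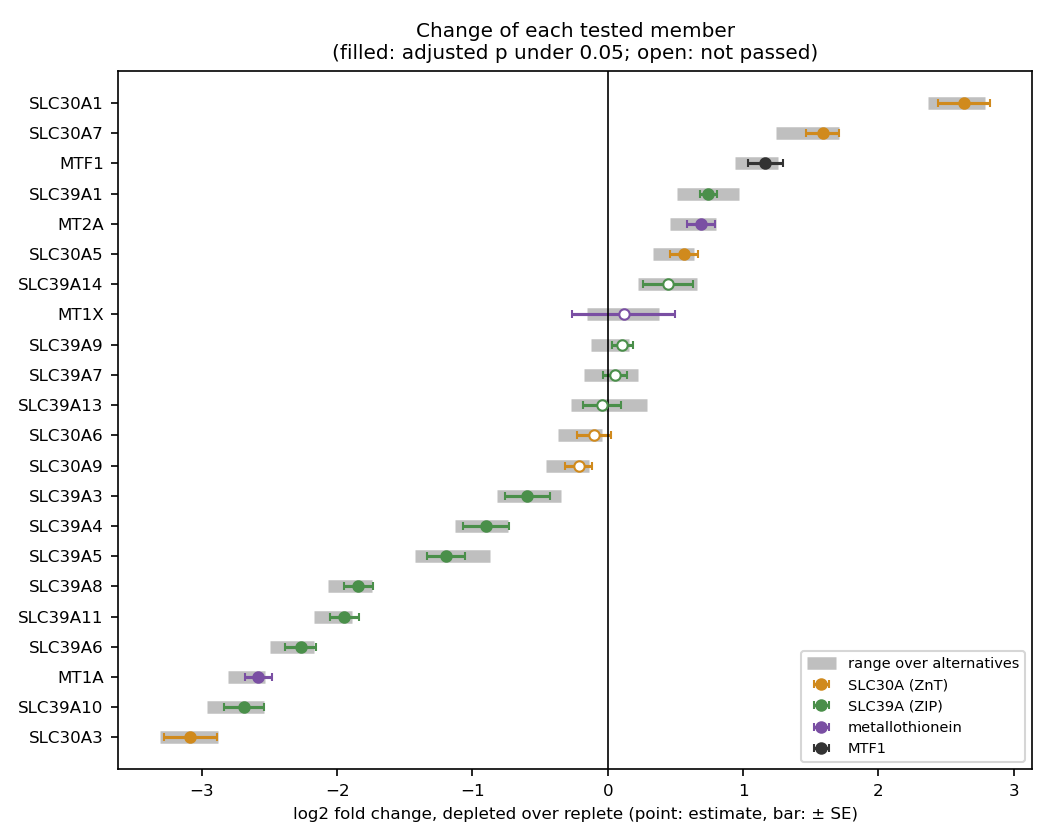
Log2 fold change (depleted over replete) of the 22 tested members, in order, with the SE as a bar and the range over the 16 alternative settings in grey. Filled points passed an adjusted p of 0.05. SLC30A1 is at the top at 2.63 and SLC30A3 at the bottom at −3.08, and the grey ranges of MT1X, SLC39A7, SLC39A9 and SLC39A13 cross 0.

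Other genes of metal biology moved in both directions, and those named passed the same test. The share called in the first 3 lists, from 75.0% to 83.3%, lay near the 78.6% of all tested genes. Of 18 tested genes of copper and other metal handling, 7 rose and 8 fell, or 6 and 9 with library totals alone, with a median log2 fold change of 0.00. The divalent cation channel kinase TRPM7 averaged 169 ± 31.4 CPM in depleted and 79.4 ± 4.07 CPM in replete libraries (log2 fold change 1.32), and MAGT1, a magnesium transporter, rose by 0.82. SOD1, the copper-zinc superoxide dismutase, averaged 318 ± 14.5 CPM in depleted and 684 ± 7.17 CPM in replete libraries (−0.88), and SCO2, a copper chaperone of cytochrome oxidase, fell by 2.10. Of 12 stress genes that metals can induce, 3 rose and 6 fell, or 2 and 7 with library totals alone. HMOX1, heme oxygenase, averaged 82.8 ± 10.6 CPM in depleted and 18.4 ± 1.79 CPM in replete libraries (log2 fold change 2.40, edgeR adjusted p = 1.22e-09). The HSP40 gene DNAJB1 rose by 0.86. HSPA8, the constitutive HSP70, fell by 4.23 and HSPA1A, an inducible HSP70, by 2.65, although HSPA1A and HSPA1B are near-identical copies that can share reads.

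Of 20 listed zinc-requiring enzymes of the cell surface and secretory pathway, 10 could be tested, and 2 rose and 6 fell, or 2 and 7 with library totals alone (median −0.46). The protease genes MMP1 and ADAM17 rose by 1.42 and 0.91. CA12, a membrane carbonic anhydrase, averaged 1.61 ± 0.402 CPM in depleted and 47.8 ± 2.19 CPM in replete libraries (log2 fold change −4.67, edgeR adjusted p = 5.29e-11), and NT5E, an ecto-nucleotidase, fell by 0.95. MT2A is also known as a glucocorticoid-responsive gene. Of 7 tested genes of that kind 5 rose and 2 fell (median 1.62), where 39.1% of all tested genes rose and 39.4% fell. This list was chosen with earlier results of these data known, and a link of these genes to the rise of MT2A was not tested. The clock gene PER1 averaged 634 ± 77.8 CPM in depleted and 32.6 ± 4.26 CPM in replete libraries (log2 fold change 4.51) and the phosphatase gene DUSP1 rose by 1.92. The glutamine synthetase gene GLUL and the chaperone gene FKBP5 fell by 0.66 and 0.44.

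**Figure D5:**
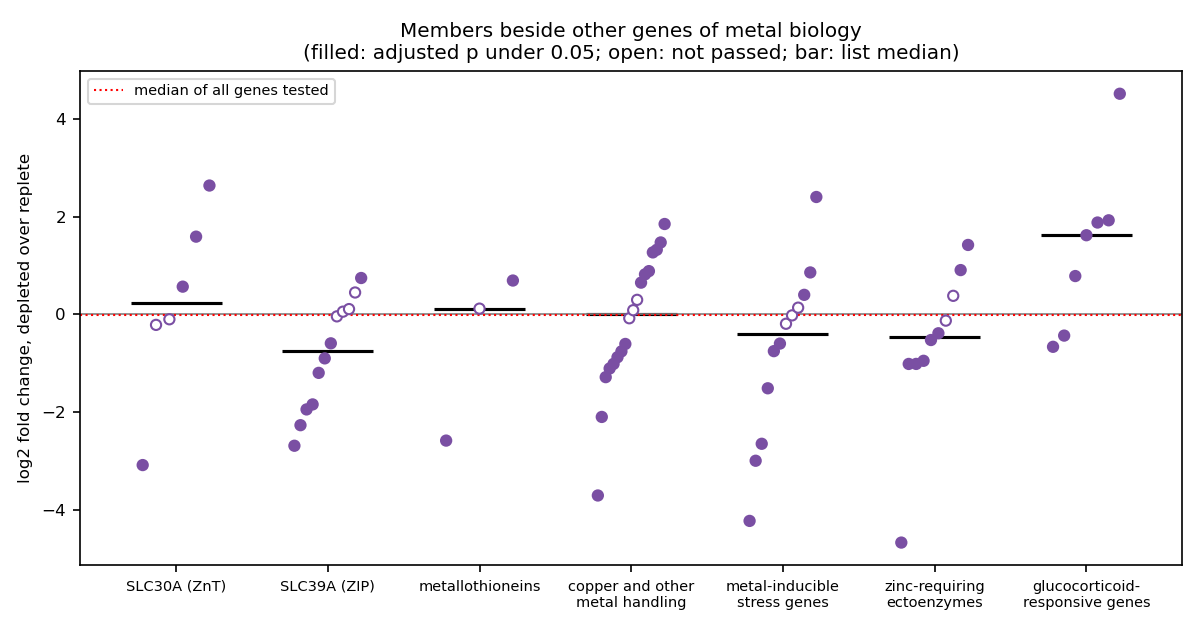
Log2 fold change (depleted over replete) of each tested gene in the ZnT, ZIP and metallothionein groups and in 4 comparison lists, with filled points for an adjusted p under 0.05, open points for genes that did not pass, and a bar at each list's median. The medians are 0.23, −0.75 and 0.12 for the members and 0.00, −0.40, −0.46 and 1.62 for the lists, and a dotted line marks the median of all tested genes at −0.02.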

How the data were processed

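The authors deposited raw counts per gene symbol, 1 library per file, and all values were whole. Per the labels, 500 ng of total RNA extracted with TRIzol entered a Lexogen QuantSeq 3′ mRNA library. Per the submitters' processing notes, Bowtie2, edgeR and hg19 were used, with no role or version. The counting program and its use of strand are not given in the sources used here. Files held 25737 entries for 24462 symbols, and entries of a symbol were summed (SLC39A7 had 6, 5 of them at 0). Genes were kept by filterByExpr (minimum count 10, minimum total 15) and tested with edgeR 4.0.16 (R 4.3.3), TMM factors, the robust quasi-likelihood test, two-sided, and Benjamini-Hochberg adjustment over all genes tested. Alternatives were other scalings and filters, the DESeq2 1.42.0 and limma-voom 3.58.1 tests, fits without each library in turn, a replicate block, the largest entry per symbol, and removal of a loess trend (span 0.5) over GC content and length. The procedure was also run on simulated counts in which few genes were changed, unlike in these data. GENCODE 29 (GRCh38) served for overlaps, found from its exon coordinates, and for transcript features, and RefSeq (GRCh38.p14) served for promoters. Members and lists were chosen with earlier results of these data known. All members are named, and of each comparison list the 2 with the smallest p in each direction. Permutations used scipy 1.17.1.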

Additional observations from a re-analysis of the deposited data

How the results depend on the processing

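Of the 15 members called, 14 kept direction and call under every one of the 16 alternatives that could test them, and the exception was SLC39A3 without the GC and length trend (−0.34). SLC39A3 and SLC39A4 fell below a mean CPM of 10 and were not tested there. Between 14 and 19 members were called over the alternatives, and from 6956 to 11028 genes in all. Removing the GC and length trend added SLC30A6, SLC30A9, SLC39A7, SLC39A13 and SLC39A14, and leaving out depleted replicate 1 added SLC30A9. The metallothionein sum lost its call with library totals alone (0.0485) and upper quartile factors (0.0685), and without a library it ran from 0.15 to 0.36, not passing without any replete library (adjusted p from 0.0645 to 0.0671). Signs turned only among members that did not pass: MT1X to −0.11 with library totals and −0.0920 with upper quartile factors (−0.15 to 0.38 without a library), SLC39A7 to −0.17, −0.16 and, with a mean CPM of at least 10, −0.0457 (−0.0108 to 0.10), SLC39A9 to −0.12 and −0.10, and SLC39A13 to 0.29 without the GC and length trend (adjusted p = 0.0365; −0.17 to 0.0470). The cause was not tested. Same-numbered libraries correlated at 0.192, 0.0453 and 0.0251 in their deviations. Depleted replicates 1 and 3 correlated best with the replete library of their own number, and depleted replicate 2 with replete replicate 3 (0.0944). These values were low, and numbers were not taken as pairs. A replicate block called 16 members, adding SLC39A14 (adjusted p = 0.0441), and 9940 genes in all, with a metallothionein sum of 0.27. Depth limits the 13 untested members, none above 19 counts in a library.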

Other observations

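Within the list of copper and other metal handling, other genes passed the test in both directions. These were chosen after their values were seen. ATP7A, the copper pump of most tissues, averaged 14.3 ± 1.43 CPM in depleted and 6.97 ± 1.34 CPM in replete libraries (log2 fold change 1.27, edgeR adjusted p = 1.59e-05). ATP7B was lower by 3.71 and was barely counted, at 0.0993 ± 0.0926 CPM in depleted and 1.81 ± 0.287 CPM in replete libraries. It reached the filter's level of 1.15 CPM only in the replete group, where it is high, so its call is no support for a fall. The copper importer gene SLC31A1 rose by 0.65, and the copper chaperone genes ATOX1 and CCS fell by 0.76 and 1.29. Among the CNNM genes, linked to magnesium transport, CNNM2 rose by 1.85 while CNNM3 and CNNM4 fell by 0.61 and 1.01.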
